A study of Homo sapiens with 9 samples.

Results

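The nuclear-encoded genes of the mitochondrial respiratory chain were followed in GM12878, a human B-lymphoblastoid cell line transformed with Epstein-Barr virus. Members were taken from the gene-level probe groups (clusters) of the array that carried 1 gene symbol. The symbol had to begin with NDUFA, NDUFB, NDUFC, NDUFS, NDUFV, UQCR or ATP5, to begin with COX and a digit, or to be SDHA, SDHB, SDHC or SDHD. The cluster with the highest mean over the 9 arrays stood for each symbol. This gave 77 members among 14232 genes named by a single symbol, with 34 members in complex I, 3 in complex II, 6 in complex III, 21 in complex IV and 13 in complex V. The members were measured on Affymetrix exon arrays in 3 groups of 3 cultures. One group was untreated (0 h). The others received D,L-sulforaphane, a cruciferous vegetable isothiocyanate, at 10 µM for 8 h or 24 h. According to the labels the compound was given in a dimethyl sulphoxide vehicle, and no vehicle-only array was analysed here. Time in culture, vehicle and sulforaphane therefore cannot be told apart in either comparison with 0 h. In a bulk culture, fewer cells and less RNA per cell cannot be told apart either, and 1 immortalised line stands for B cells.

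The respiratory chain sits in the inner mitochondrial membrane. Complexes I and II pass electrons from NADH and succinate to coenzyme Q, complex III passes them on to cytochrome c, and complex IV reduces oxygen. Complex V, the ATP synthase, uses the resulting proton gradient to make ATP. Most subunits are encoded in the nucleus and a few of complexes I, III, IV and V in mitochondrial DNA, so the complexes are built from both sets with the help of dedicated assembly factors. Sulforaphane is best known as an activator of the transcription factor NRF2, which binds antioxidant response elements. A different factor with a similar name, NRF1 (nuclear respiratory factor 1), and factors of the ETS family such as GABPA bind the promoters of many respiratory genes.

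RefSeq promoter sequences (GRCh38.p14) were matched by Entrez gene number for 65 of the 77 members. They were searched on both strands over the 250 bases before the annotated start. An exact NRF1 motif, GCGCA and GCGC with any 1 base between them, was found in 12 of the 65 members (18.5%) and in 5.07% of all 35116 promoters. The ETS core CCGGAAG was found in 14 members (21.5%) against 8.52% of all promoters. The antioxidant response element core TGACNNNGC was found in 5 members (7.69%), against 10.9% of all promoters. These 5 were NDUFA2, NDUFA9, NDUFAF2, NDUFS6 and UQCRC1. Among the 22199 promoters of protein-coding genes, the NRF1, ETS and antioxidant response element motifs were found in 6.56%, 10.7% and 11.2%. The last 180 bases before the start are shown for 4 members that hold the NRF1 motif, SDHA and SDHD of complex II, UQCR11 of complex III and COX18 of complex IV as examples from 3 of the complexes. Capitals mark the NRF1 and ETS matches on either strand. SDHA lies on the plus strand at chr5:218140-218319, SDHD on the plus strand at chr11:112086693-112086872, UQCR11 on the minus strand at chr19:1605463-1605642 and COX18 on the minus strand at chr4:73069717-73069896.
SDHA: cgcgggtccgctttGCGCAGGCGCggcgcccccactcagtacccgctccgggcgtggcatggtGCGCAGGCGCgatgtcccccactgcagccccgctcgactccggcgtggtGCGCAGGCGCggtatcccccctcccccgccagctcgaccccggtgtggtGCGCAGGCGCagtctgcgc
SDHD: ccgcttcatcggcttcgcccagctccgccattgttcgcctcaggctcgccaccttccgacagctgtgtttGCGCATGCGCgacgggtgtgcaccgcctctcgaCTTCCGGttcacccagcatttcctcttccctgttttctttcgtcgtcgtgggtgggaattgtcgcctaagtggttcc
UQCR11: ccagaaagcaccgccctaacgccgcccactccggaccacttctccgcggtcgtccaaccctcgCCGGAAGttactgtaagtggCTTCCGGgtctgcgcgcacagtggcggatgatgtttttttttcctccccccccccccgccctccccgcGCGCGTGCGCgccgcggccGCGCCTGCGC
COX18: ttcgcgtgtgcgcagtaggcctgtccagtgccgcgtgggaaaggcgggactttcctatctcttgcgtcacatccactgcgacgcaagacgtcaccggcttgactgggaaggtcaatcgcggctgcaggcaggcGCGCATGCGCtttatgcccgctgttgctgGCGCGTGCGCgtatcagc

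The SDHA stretch holds 4 NRF1 matches, which begin 166, 117, 68 and 19 bases before the start. In SDHD a single NRF1 match begins 110 bases and an ETS match 77 bases before the start. UQCR11 carries NRF1 matches at 29 and 10 bases and ETS matches at 117 and 97 bases. In COX18 the NRF1 matches begin 47 and 18 bases before the start. A match describes these letters and does not show that a factor was bound. The members with the NRF1 motif had a median difference of 0.08 log2 units between 24 h and 0 h, and the members without it 0.11. With and without the ETS core both medians were 0.08. With and without the antioxidant response element core they were 0.04 and 0.10. At 8 h the medians with and without each motif were 0.003 and 0.04 for NRF1 and 0.03 and 0.03 for ETS. For the antioxidant response element core they were -0.09 and 0.04 at 8 h. All these medians cover only the 65 members with a promoter sequence, and the gaps were not tested.

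The mean deposited log2 signal of an array ranged from 7.97 on untreated replicate 2, the lowest, to 8.14. The 7 measured B-cell markers had signals of 9.83 to 13.6 on every array, and none of them or of the T-cell, myeloid, fibroblast, epithelial and muscle markers was called in any comparison. Of the 77 members, 71 had a mean signal above the dimmest 25% of clusters. Signals were not compared between genes, since probes differ in brightness.

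No respiratory chain member was called at 8 h or at 24 h. The test was limma over all 22011 clusters with Benjamini-Hochberg adjustment, and a gene was called at an adjusted p below 0.05. In the comparison of 8 h with 0 h, 0 of 77 members were called against 0.595% of all clusters (131), and the smallest adjusted p of a member was 0.11, for COX20. In the comparison of 24 h with 0 h, 0 members were called against 1.62% of all clusters (357), and the smallest adjusted p was 0.071, again for COX20. Between 24 h and 8 h, 0 members were called against 0.327% of all clusters (72), and the smallest adjusted p was 0.083, for NDUFAF3. At these shares a set of 77 would hold few or no called genes. Leaving out untreated replicate 1 gave 2 called members at 8 h, NDUFA7 and NDUFAF5, and 1 at 24 h, NDUFAF5, while the calls over all clusters went from 131 to 654 at 8 h and from 357 to 768 at 24 h. Weighting the arrays by their fit gave 32, 37 and 4 called members, against 9603, 9010 and 1516 of all 22011 clusters. The estimation of these weights stopped before it converged. Weighting gene by gene gave 4, 8 and 4 members, against 1703, 1889 and 1325 of all clusters. Both weightings gave most weight to untreated replicate 3 among the untreated arrays.

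At an unadjusted p below 0.05, 15.1% of all clusters differed between 8 h and 0 h and 8 members did. Of these members 6 were higher, against 8.55% of clusters, and 2 lower, against 6.57%. Between 24 h and 0 h, 22 members were past this level against 20.4% of clusters. Of these 19 (24.7% of the 77) were higher, against 13.9% of clusters, and 3 lower, against 6.45%. After quantile normalization 14 members were past it at 24 h in either direction, and 13 after centring, in place of 22. Between 24 h and 8 h, 6 members were past it against 10.4% of clusters, 5 of them higher (6.91% of clusters) and 1 lower (3.45%). The arrays of the groups did not overlap for 11 members at 8 h (17.6% of clusters), 20 members at 24 h (24.3%) and 21 members between 24 h and 8 h (21.6%). These counts carry no correction for the number of genes tested.

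The size of the differences was small. The median over the 77 members was 0.04 log2 units at 8 h against 0 h, 0.09 at 24 h against 0 h and 0.07 at 24 h against 8 h, where all clusters had medians of -0.01, 0.02 and 0.02. The members with a positive difference numbered 46, 54 and 55 of 77, against 10340, 11686 and 12739 of all 22011 clusters. The 14232 named genes had medians of -0.04, -0.01 and 0.03, with 5555, 6809 and 8713 positive. Without untreated replicate 2 the median of the members at 8 h was -0.0037, and after quantile normalization it was -0.0071. The median standard error of a member's difference was 0.11 and the median half-width of its 95% interval 0.25 on the log2 scale. The whole interval lay within a 2-fold difference in either direction for 72 members at 8 h, 70 at 24 h and 73 between 24 h and 8 h. These were 93.5%, 90.9% and 94.8% of the members, against 93%, 90.9% and 94.8% of all clusters. Of all named genes, 98.6%, 95.8% and 98.4% met this bound. The interval lay within 1.5-fold for 61, 56 and 60 members (79.2%, 72.7% and 77.9%), against 75.4%, 71.1% and 76.9% of all clusters. Among all named genes, 84.9%, 79.5% and 85% had intervals within 1.5-fold. For the other members the interval reached past that size in at least 1 direction.

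**Figure D1:**
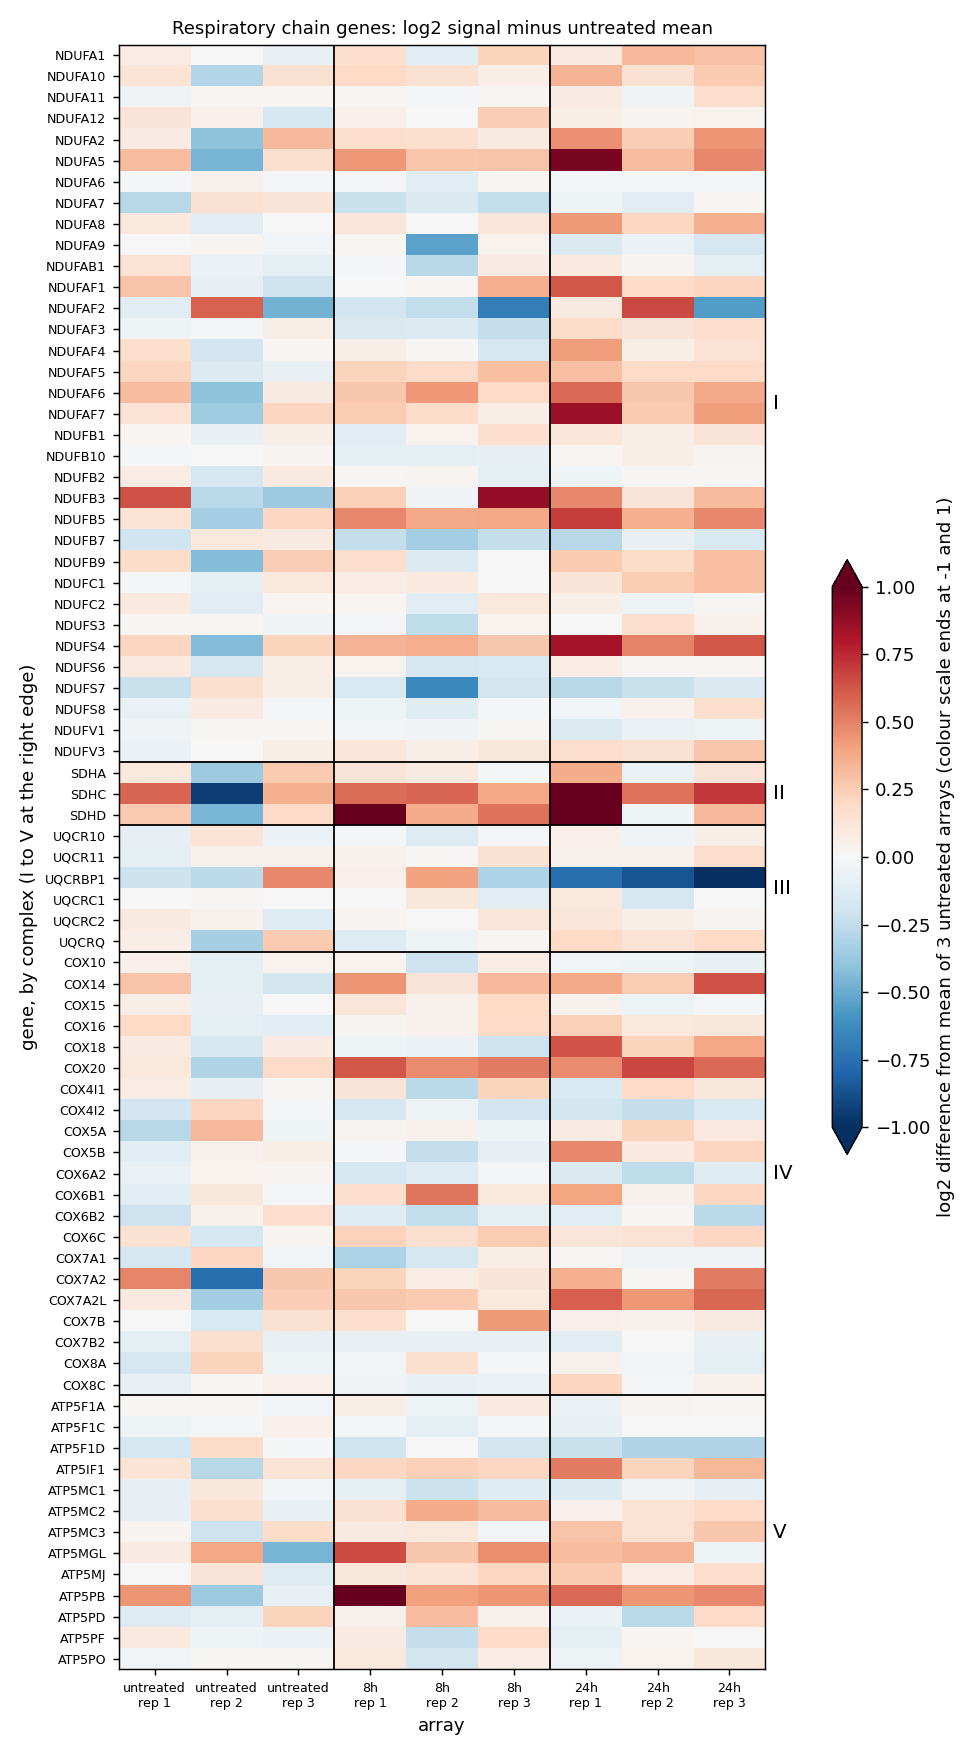
Each of the 77 members (rows, grouped by complex) on each of the 9 arrays (columns), coloured by its log2 signal minus the mean of its 3 untreated arrays. Colour differences among the 3 untreated columns are as wide as those between groups for many members, and untreated replicate 2 was the lowest of the 9 arrays for 27 of the 77.

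**Figure D2:**
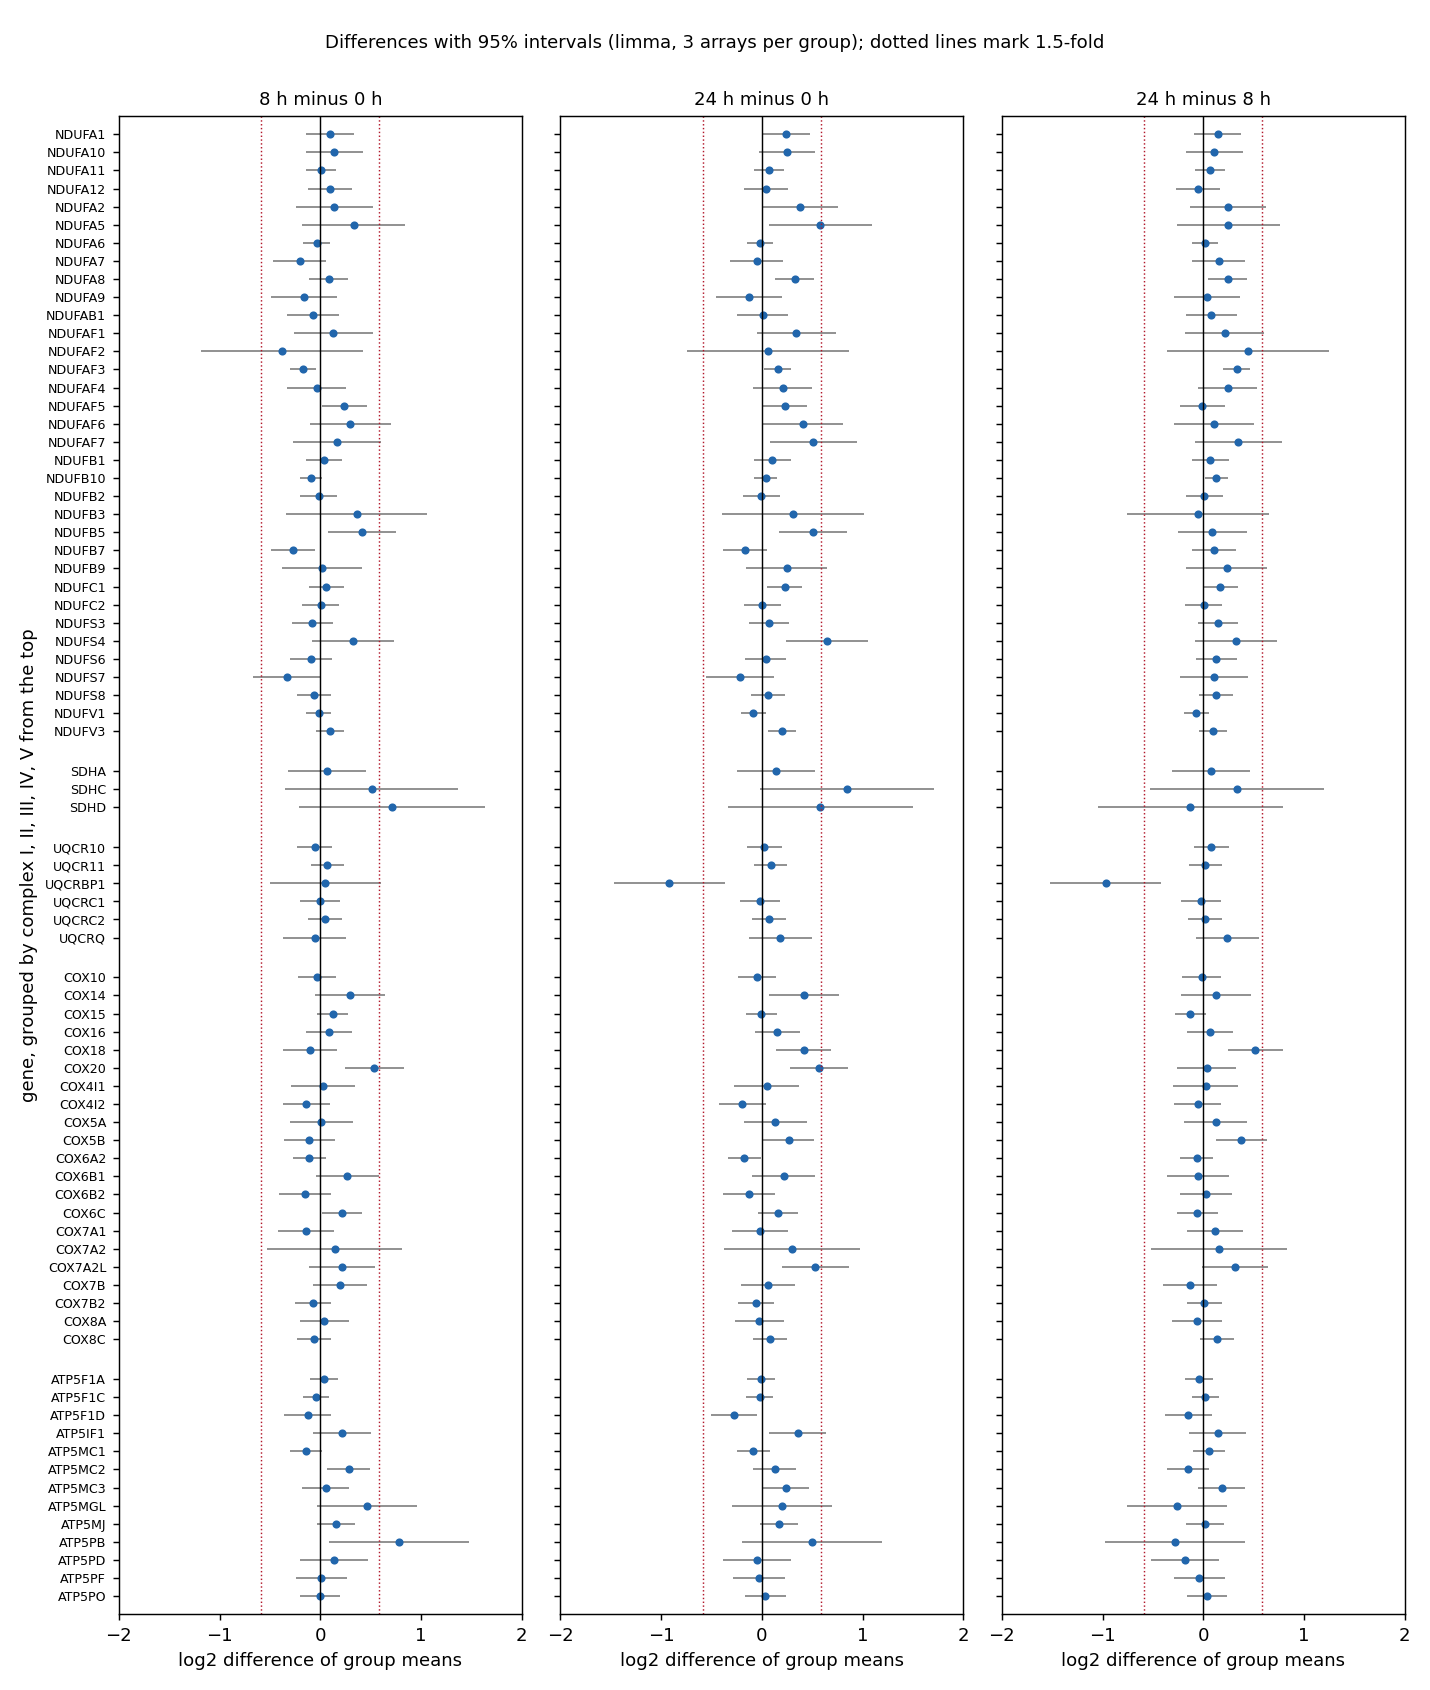
Difference of each member from the untreated cultures in log2 units (horizontal axis) with its 95% interval, at 8 h and at 24 h, by complex. No member passed the adjusted threshold. The whole interval lay within a 2-fold difference for 72 members (93.5%) at 8 h and 70 (90.9%) at 24 h, against 93% and 90.9% of all clusters.

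Complex I, the NADH dehydrogenase that opens the chain, had 34 members: 4 subunits of the catalytic core, 23 accessory subunits and 7 assembly factors. Its median difference was 0.01 at 8 h, 0.13 at 24 h and 0.12 between 24 h and 8 h. Positive differences numbered 19, 27 and 30 of 34, against 10340, 11686 and 12739 of all 22011 clusters. Rescaling reduced the 24 h median to 0.03 with quantile normalization and to 0.07 with centring on the array medians.

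The core as a whole, though not each of its subunits, holds the flavin and iron-sulphur clusters through which electrons pass. NDUFV1, which binds NADH, had signals of 10.90, 10.95 and 10.95 untreated, 10.90, 10.90 and 10.95 at 8 h, and 10.79, 10.87 and 10.88 at 24 h. The 24 h arrays lay below all others, but by little: the difference from 0 h was -0.08 ± 0.05 (SE; n = 3 per group; adjusted p = 0.37). NDUFS3 differed by 0.07 ± 0.09 at 24 h and NDUFS8 by 0.06 ± 0.07. NDUFS7, which binds the last iron-sulphur cluster before coenzyme Q, had signals of 9.23, 9.61 and 9.51 untreated, 9.30, 8.81 and 9.27 at 8 h, and 9.17, 9.23 and 9.30 at 24 h. Its groups overlapped at untreated replicate 1. It had the lowest difference of complex I at 24 h, -0.22 ± 0.15 (adjusted p = 0.40), and -0.33 ± 0.15 at 8 h (adjusted p = 0.34). The NDUFS7 difference at 24 h was -0.14 without untreated replicate 2.

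NDUFS4, an accessory subunit of the electron-input arm whose loss causes Leigh syndrome, had the highest difference of complex I at 24 h. Its signals were 9.94, 9.29 and 9.94 untreated, 10.06, 10.09 and 9.99 at 8 h, and 10.55, 10.21 and 10.35 at 24 h. All 24 h arrays lay above all 8 h arrays, and those above all untreated ones, with 1 low untreated array. The difference from 0 h was 0.32 ± 0.18 at 8 h (adjusted p = 0.42) and 0.65 ± 0.18 at 24 h (1.57-fold; 95% interval 0.24 to 1.05; adjusted p = 0.12). NDUFB5, a subunit of the membrane arm, had the highest difference at 8 h. It had signals of 10.96, 10.49 and 11.04 untreated, 11.31, 11.21 and 11.22 at 8 h, and 11.52, 11.19 and 11.31 at 24 h. Both treated groups lay above the untreated arrays, by 0.42 ± 0.15 at 8 h (adjusted p = 0.24) and 0.51 ± 0.15 at 24 h (adjusted p = 0.13). Untreated replicate 2 was the low array of both genes, and without it NDUFB5 differed by 0.25 and 0.34 and NDUFS4 by 0.11 and 0.43. NDUFA8, an intermembrane-space subunit, had values of 9.67, 9.45 and 9.57 untreated, 9.69, 9.57 and 9.69 at 8 h, and 9.99, 9.77 and 9.92 at 24 h. Only its 24 h arrays stood clear of the others, by 0.33 ± 0.08 over 0 h (adjusted p = 0.10). NDUFB7 was lower on every 8 h array (9.35, 9.25 and 9.35) than on the untreated ones (9.39, 9.69 and 9.68), by -0.27 ± 0.10 (adjusted p = 0.24). The remaining accessory subunits differed from 0 h by between -0.20 (NDUFA7) and 0.36 (NDUFB3) at 8 h, and by between -0.12 (NDUFA9) and 0.58 (NDUFA5) at 24 h.

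Assembly factors build the complexes and are not part of the finished enzymes. The 7 of complex I, NDUFAF1 to NDUFAF7, had a median difference of 0.13 at 8 h, 0.23 at 24 h and 0.24 between 24 h and 8 h, and at 24 h all 7 differences from 0 h were positive. Without untreated replicate 2 the 8 h median was -0.01. NDUFAF3, which acts early on the arm that docks coenzyme Q, had the smallest spread. Its signals were 9.54, 9.57 and 9.65 untreated, 9.45, 9.45 and 9.35 at 8 h, and 9.77, 9.71 and 9.76 at 24 h. The 3 groups did not overlap, with 8 h lowest and 24 h highest. The difference between 24 h and 8 h was 0.33 ± 0.06 (1.26-fold; 95% interval 0.20 to 0.47; adjusted p = 0.083), made up of -0.17 ± 0.06 at 8 h (adjusted p = 0.22) and 0.16 ± 0.06 at 24 h (adjusted p = 0.20) against 0 h. NDUFAF7, a methyltransferase that modifies a core subunit, differed by 0.51 ± 0.19 at 24 h (adjusted p = 0.20), or 0.33 without untreated replicate 2. NDUFAF5, which was called when untreated replicate 1 was left out, had signals of 7.63, 7.27 and 7.33 untreated, 7.64, 7.61 and 7.71 at 8 h, and 7.72, 7.61 and 7.60 at 24 h. Untreated replicate 1 lay within the range of the treated arrays and the other untreated arrays lay below it. NDUFAF2 was dim and scattered, at 3.06, 3.77 and 2.71 untreated, 2.98, 2.93 and 2.48 at 8 h, and 3.27, 3.84 and 2.62 at 24 h. Its groups overlapped fully, and its differences of -0.38 ± 0.35 at 8 h and 0.44 ± 0.35 between 24 h and 8 h (adjusted p = 0.62 and 0.72) had intervals that included 0.

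Complex II, succinate dehydrogenase, also belongs to the tricarboxylic acid cycle and has no subunit from mitochondrial DNA. SDHA, SDHC and SDHD were members, and SDHB had no cluster of its own symbol here. Its median difference was 0.51 at 8 h and 0.58 at 24 h, the highest of the 5 complexes, and these values rested on single arrays. SDHA, the flavoprotein that oxidises succinate, had signals of 11.83, 11.37 and 11.99 untreated, 11.86, 11.82 and 11.71 at 8 h, and 12.10, 11.66 and 11.85 at 24 h. SDHC, a membrane anchor that helps bind coenzyme Q, had signals of 9.63, 8.10 and 9.40 untreated, 9.61, 9.63 and 9.43 at 8 h, and 10.33, 9.59 and 9.75 at 24 h. SDHD, the other anchor, was dim, at 4.96, 4.24 and 4.89 untreated, 5.91, 5.07 and 5.24 at 8 h, and 6.15, 4.66 and 5.02 at 24 h. For all 3 genes untreated replicate 2 was the lowest and 24 h replicate 1 the highest of the 9 arrays.

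The difference of SDHC from 0 h was 0.51 ± 0.37 at 8 h (95% interval -0.35 to 1.37; adjusted p = 0.53) and 0.85 ± 0.37 at 24 h (95% interval -0.02 to 1.71; adjusted p = 0.25). Without untreated replicate 2 these differences were 0.04 and 0.38. SDHD differed by 0.71 ± 0.40 at 8 h (adjusted p = 0.43) and 0.58 ± 0.40 at 24 h (adjusted p = 0.40), and only its 8 h arrays did not overlap the untreated ones. Without 8 h replicate 1 its 8 h difference was 0.46, and without untreated replicate 2 the 24 h difference of SDHD was 0.35. SDHA differed by 0.07 ± 0.17 and 0.14 ± 0.17 (adjusted p = 0.86 and 0.62), and by -0.11 and -0.04 without untreated replicate 2. The median of complex II without that array was 0.04 at 8 h and 0.35 at 24 h, and without 24 h replicate 1 it was 0.14 at 24 h. Between 24 h and 8 h the median was 0.08, with SDHC at 0.34 ± 0.37 (adjusted p = 0.81) and SDHD at -0.13 ± 0.40 (adjusted p = 0.95).

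**Figure D3:**
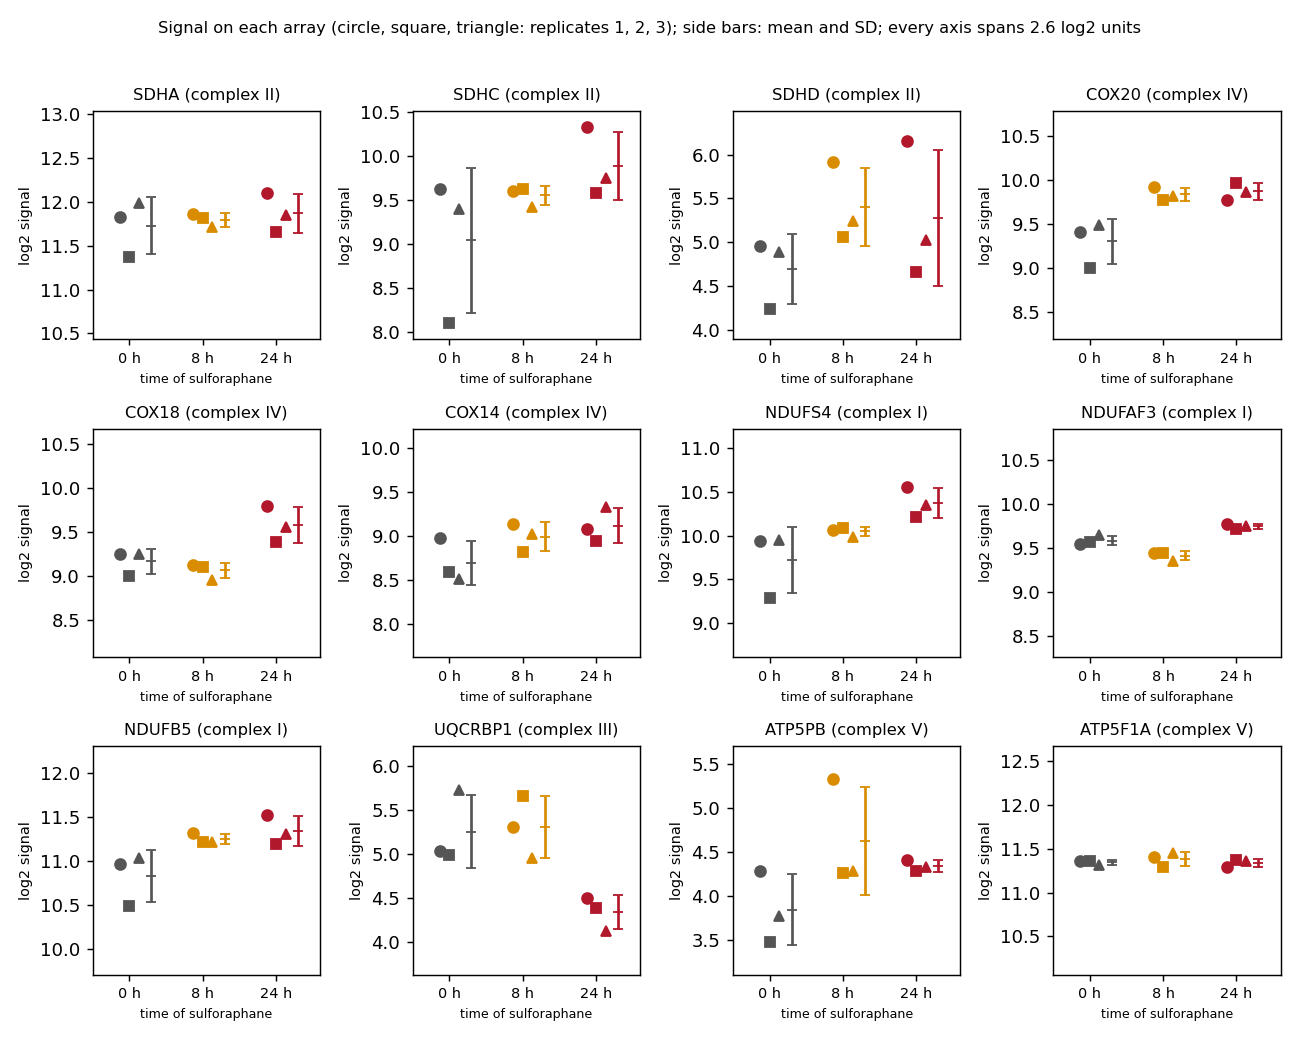
Log2 signal of selected members on each of the 9 arrays, one panel per gene, with a point per array and a bar at the mean of the 3 arrays of a group. The SDHC panel shows untreated replicate 2 at 8.10, far below the other 8 arrays (9.40 to 10.33), whereas the 3 groups of NDUFAF3 are separate.

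Complex III, the cytochrome bc1 complex, was close to level at both times. Its median difference was 0.02 at 8 h and 0.05 at 24 h, and the 24 h median was -0.05 after quantile normalization and -0.02 after centring. UQCRC1 and UQCRC2, the large core proteins on the matrix side, had narrow intervals: UQCRC1 differed by -0.02 ± 0.09 at 24 h (95% interval -0.22 to 0.18). UQCRC2 differed by 0.07 ± 0.07 (95% interval -0.10 to 0.24). Of the small subunits, UQCR11 differed by 0.07 ± 0.07 at 8 h (adjusted p = 0.65) and UQCR10 by -0.05 ± 0.08 (adjusted p = 0.74). UQCRQ, which contacts cytochrome b, had signals of 10.10, 9.70 and 10.30 untreated, 9.90, 9.98 and 10.05 at 8 h, and 10.23, 10.18 and 10.23 at 24 h. The untreated arrays spanned all the others, and the differences were 0.18 ± 0.14 at 24 h (adjusted p = 0.43) and 0.24 ± 0.14 between 24 h and 8 h (adjusted p = 0.61). The 24 h difference of UQCRQ from 0 h was 0.02 without untreated replicate 2. The rule also took in UQCRBP1, a pseudogene of the subunit gene UQCRB, and it had the lowest difference of all 77 members at 24 h. Its signals were 5.04, 4.99 and 5.73 untreated, 5.30, 5.65 and 4.95 at 8 h, and 4.50, 4.38 and 4.12 at 24 h. All 24 h arrays were below the other 6, by -0.92 ± 0.24 against 0 h (adjusted p = 0.11) and -0.97 ± 0.24 against 8 h (adjusted p = 0.20). These signals lie among the dimmest 25% of clusters. Probes of a pseudogene can share sequence with its parent, so the source of this signal is uncertain. A cluster shared by UQCRB and UQCRBP1, which is not a member, went the other way. It differed by 0.32 ± 0.14 at 8 h (adjusted p = 0.34) and 0.16 ± 0.14 at 24 h (adjusted p = 0.49).

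Complex IV, cytochrome c oxidase, had 21 members of 4 kinds. The 8 subunits found in most tissues had a median difference of 0.09 at 8 h and 0.15 at 24 h, with 7 of 8 positive at each time. Without untreated replicate 2 the 24 h median was 0.08, and 5 and 6 were positive at 8 h and 24 h. The positive subunits numbered 4 and 5 after quantile normalization and 6 and 5 after centring. COX4I1, the regulatory subunit that takes part early in assembly, differed by 0.05 ± 0.14 at 24 h (95% interval -0.27 to 0.37). COX5B, a zinc-binding subunit on the matrix side, had signals of 12.09, 12.24 and 12.26 untreated, 12.18, 11.96 and 12.12 at 8 h, and 12.68, 12.30 and 12.41 at 24 h. Its 24 h arrays were the highest, by 0.27 ± 0.11 over 0 h (adjusted p = 0.23) and 0.38 ± 0.11 over 8 h (adjusted p = 0.27). COX6C was higher on the 8 h arrays (10.70, 10.63 and 10.72) than on the untreated ones (10.62, 10.29 and 10.49), by 0.22 ± 0.09 (adjusted p = 0.30), or 0.13 without untreated replicate 2. COX7A2, like SDHC, had a single low array, untreated replicate 2, at 8.80 against 9.57 to 10.07 on the other 8. COX7B had the lowest difference of the complex between 24 h and 8 h, -0.13 ± 0.12 (adjusted p = 0.74).

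The 6 isoforms that belong mainly to other tissues, such as muscle, lung and testis, were COX4I2, COX6A2, COX6B2, COX7A1, COX7B2 and COX8C. They had a median difference of -0.12 at 8 h and -0.09 at 24 h, and 0 of 6 and 1 of 6 were positive. COX4I2, the lung isoform of subunit 4, had the lowest difference at 24 h, with signals of 7.52, 7.93 and 7.69 untreated, 7.55, 7.66 and 7.52 at 8 h, and 7.53, 7.48 and 7.56 at 24 h. Untreated replicate 2 was the highest of these, and the groups overlapped; the difference was -0.19 ± 0.10 (adjusted p = 0.31), or -0.08 without that array. COX6B2, the testis isoform, differed by -0.15 ± 0.11 at 8 h (adjusted p = 0.53). COX8C differed by 0.08 ± 0.07 at 24 h (adjusted p = 0.52). COX6A2, the heart and skeletal muscle isoform, had 24 h arrays (8.34, 8.23 and 8.37) below the untreated ones (8.42, 8.52 and 8.51), by -0.17 ± 0.07 (adjusted p = 0.23). The 4 measured markers of striated muscle had median differences of -0.13 at 8 h and -0.13 at 24 h, and for them too all 4 were negative. Negative differences were also in the majority in the other marker lists. The myeloid list had medians of -0.28 and -0.15 (0 of 5 positive at both times) and the T-cell list -0.11 and -0.07. The fibroblast and epithelial list had -0.05 and -0.09. The B-cell list, of the cells' own type, had -0.06 and -0.08 (1 and 2 of 7 positive). Of all 14232 named genes, 8670 were negative at 8 h and 7417 at 24 h. The part of such shifts in the isoform values was not tested. Without untreated replicate 2 the isoform medians were -0.04 and -0.03.

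The assembly factors of complex IV held COX20, the member with the smallest adjusted p in both comparisons with 0 h. COX20, which guards the newly made mitochondrial subunit COX2, had signals of 9.40, 9.00 and 9.49 untreated, 9.92, 9.77 and 9.82 at 8 h, and 9.77, 9.97 and 9.87 at 24 h. All 6 treated arrays lay above all 3 untreated ones, and the treated groups overlapped. The difference from 0 h was 0.54 ± 0.13 at 8 h (1.45-fold; 95% interval 0.25 to 0.83; adjusted p = 0.11) and 0.57 ± 0.13 at 24 h (1.48-fold; 95% interval 0.28 to 0.86; adjusted p = 0.071). Without untreated replicate 2 it was 0.39 and 0.42 (adjusted p = 0.077 and 0.059). With the dimmest 25% of clusters left out before adjustment it passed the threshold at 24 h (adjusted p = 0.048). A further cluster of the COX20 symbol gave 0.21 ± 0.50 at 8 h and 0.47 ± 0.50 at 24 h, which is too imprecise to bear on this.

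COX18, an insertase for the same mitochondrial subunit, whose promoter is printed above, had another time course. Its signals were 9.25, 9.01 and 9.25 untreated, 9.13, 9.11 and 8.96 at 8 h, and 9.80, 9.39 and 9.56 at 24 h. The 24 h arrays were all above the other 6, which overlapped, by 0.41 ± 0.12 over 0 h (adjusted p = 0.13) and 0.52 ± 0.12 over 8 h (1.43-fold; 95% interval 0.25 to 0.79; adjusted p = 0.16). COX14, which helps make the mitochondrial subunit COX1, differed by 0.42 ± 0.15 at 24 h (adjusted p = 0.19). COX10 and COX15, which make the heme of the complex, differed by -0.05 ± 0.08 and -0.0063 ± 0.07 at 24 h, and COX15 by -0.13 ± 0.07 between 24 h and 8 h (adjusted p = 0.56). COX7A2L, which joins complexes III and IV into supercomplexes, had signals of 10.49, 10.04 and 10.63 untreated, 10.66, 10.65 and 10.50 at 8 h, and 10.98, 10.82 and 10.96 at 24 h. Its 24 h arrays were the 3 highest, by 0.53 ± 0.14 over 0 h (adjusted p = 0.11).

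Complex V, the ATP synthase, had a median difference of 0.05 at 8 h, 0.04 at 24 h and -0.04 between 24 h and 8 h. The 24 h median was -0.04 after quantile normalization and -0.03 after centring. ATP5F1A, the alpha subunit of the catalytic head, had some of the most even signals of the set: 11.36, 11.36 and 11.31 untreated, 11.41, 11.29 and 11.45 at 8 h, and 11.29, 11.37 and 11.36 at 24 h. Its 95% intervals, -0.10 to 0.18 at 8 h and -0.15 to 0.13 at 24 h, left room for only small differences. ATP5F1C, the rotating gamma subunit, differed by -0.02 ± 0.06 at 24 h. ATP5F1D, the delta subunit of the central stalk, had signals of 10.58, 10.95 and 10.75 untreated, 10.56, 10.77 and 10.58 at 8 h, and 10.54, 10.46 and 10.46 at 24 h. The 24 h arrays were the 3 lowest, and the difference of -0.27 ± 0.10 did not pass (adjusted p = 0.20); it was -0.18 without untreated replicate 2.

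The c subunit of the rotor ring is encoded by 3 genes, whose mature proteins are identical. ATP5MC1 differed by -0.14 ± 0.07 at 8 h (adjusted p = 0.38), ATP5MC2 by 0.28 ± 0.09 (adjusted p = 0.21) and ATP5MC3 by 0.05 ± 0.10 (adjusted p = 0.81). At 24 h the values were -0.08 ± 0.07, 0.13 ± 0.09 and 0.24 ± 0.10. ATP5MC3 had the highest difference of the complex between 24 h and 8 h, 0.18 ± 0.10 (adjusted p = 0.60). None of the 3 genes passed the test, and whether they differ from one another was not tested. ATP5PB, a subunit of the stator stalk, was dim and had the highest difference of all members at 8 h. Its signals were 4.29, 3.48 and 3.77 untreated, 5.33, 4.26 and 4.29 at 8 h, and 4.41, 4.29 and 4.33 at 24 h. The difference was 0.78 ± 0.30 (95% interval 0.08 to 1.47; adjusted p = 0.28), and 0.50 ± 0.30 at 24 h (adjusted p = 0.36). Without the high 8 h replicate 1 the 8 h difference was 0.43, and without untreated replicate 2 the 24 h difference of ATP5PB was 0.31. ATP5IF1, which blocks the enzyme from hydrolysing ATP when the membrane potential falls, had signals of 8.77, 8.36 and 8.77 untreated, 8.84, 8.87 and 8.84 at 8 h, and 9.15, 8.85 and 8.97 at 24 h. Both treated groups lay above the untreated arrays, by 0.22 ± 0.12 (adjusted p = 0.44) and 0.36 ± 0.12 (adjusted p = 0.18). The ATP5IF1 differences were 0.08 and 0.22 without untreated replicate 2.

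Set side by side, the complexes differed little outside complex II. The medians at 24 h against 0 h were 0.13 for complex I, 0.58 for complex II, 0.05 for complex III, 0.08 for complex IV and 0.04 for complex V. The 13 assembly factors of complexes I and IV had a median of 0.12 at 8 h and 0.23 at 24 h, with 11 of 13 positive at 24 h, against 0.04 and 0.07 for the 54 subunits found in most tissues. After quantile normalization the 24 h medians were 0.20 for the assembly factors and -0.02 for the subunits, and after centring 0.17 and 0.01. Without untreated replicate 2 the assembly factors had 0.04 at 8 h and 0.20 at 24 h. At an unadjusted p below 0.05, 7 of the 13 assembly factors and 10 of the 54 subunits were higher at 24 h, against 13.9% of all clusters. Of the 24 measured assembly factors whose names fall outside the rule, 4 were higher at this level. The count of members past this level was lower after rescaling, as given above. Each such median is a description of its members, and no test compared the complexes or the kinds of gene with each other.

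**Figure D4:**
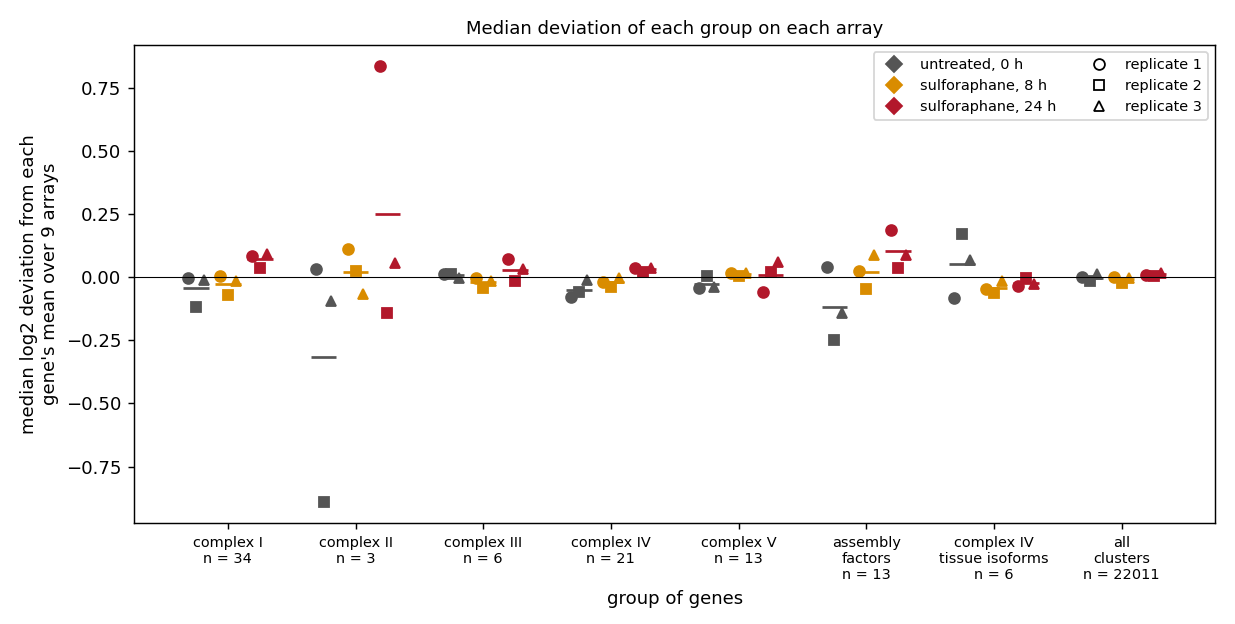
Median log2 deviation from each gene's mean over the 9 arrays, with a point per array and a bar at the mean of each group of arrays. The sets shown are complexes I to V, the assembly factors, the tissue isoforms of complex IV and all clusters. In complex II, untreated replicate 2 stands at -0.89 and 24 h replicate 1 at 0.83.

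Untreated replicate 2 was the most extreme array for many members. It was the lowest of the 9 arrays for 27 of the 77 members (35.1%), against 30.4% of all clusters, and the highest for 13 members (16.9%), against 24.2%. Without it the median over the members was -0.0037 in place of 0.04 at 8 h and 0.09 as before at 24 h. In turn, 24 h replicate 1 was the highest for 24 members (31.2%), against 20.9%. Relative to the mean of the other untreated arrays, untreated replicate 2 was lower by 0.5 log2 units or more for 13 members (16.9%) and 14.8% of all clusters. The largest gaps among the members were -1.41 for SDHC and -1.13 for COX7A2. The median SD of a member within a group was 0.157 for the untreated arrays, 0.0906 at 8 h and 0.0820 at 24 h, and over all clusters 0.150, 0.0912 and 0.0919.

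Genes that work with the chain but fall outside its naming rule were read in the same comparisons. Of the 7 measured carriers and cytochrome c genes, 0 were called. DHODH, which feeds electrons to coenzyme Q from pyrimidine synthesis, differed by -0.29 ± 0.07 at 8 h (adjusted p = 0.13), and ETFDH, which does so from fatty acid oxidation, by 0.65 ± 0.21 at 24 h (adjusted p = 0.16), or 0.43 without untreated replicate 2. Of the 12 measured genes of coenzyme Q synthesis and handling, 1 was called. COQ10A, a coenzyme Q binding protein, had signals of 8.22, 8.37 and 8.37 untreated, 8.10, 8.12 and 8.07 at 8 h, and 8.85, 8.57 and 8.62 at 24 h. It rose between 8 h and 24 h by 0.58 ± 0.09 (adjusted p = 0.044), and its 24 h arrays lay above the other 6. The adjusted p was 0.067 after quantile normalization, 0.06 after centring and 0.11 with a replicate block. It ran from 0.039 to 0.21 with each array left out in turn, and was below the threshold only without untreated replicate 2. COQ2, which attaches the side chain of coenzyme Q, differed by -0.40 ± 0.12 at 8 h (adjusted p = 0.16) and -0.41 ± 0.12 at 24 h (adjusted p = 0.12). COQ2 passed the test at both times when untreated replicate 2 was left out, at -0.54 and -0.55 (adjusted p = 0.018 and 0.017).

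Of the 24 measured assembly factors with other names, 0 were called. Their median difference was -0.04 at 8 h, 0.14 at 24 h and 0.15 between 24 h and 8 h, and in the last 23 of 24 were positive. After quantile normalization the last values were 0.02 and 0.10, and without untreated replicate 2 the 24 h median was 0.07. Over all clusters 12739 of 22011 were positive between 24 h and 8 h. TMEM186, an assembly factor of complex I, differed by 0.56 ± 0.13 at 24 h (adjusted p = 0.085), and UQCC2, of complex III, by -0.49 ± 0.15 at 8 h (adjusted p = 0.18). ACAD9, an assembly factor of complex I, passed the test at 8 h when untreated replicate 2 was left out, at -0.38 (adjusted p = 0.034). Of 13 measured regulators of respiratory genes, 0 were called: NRF1 itself differed by -0.09 ± 0.08 at 24 h (adjusted p = 0.52). TFAM, which packs and transcribes mitochondrial DNA, differed by -0.06 ± 0.10 (adjusted p = 0.75), and PPRC1, a coactivator of NRF1, by -0.21 ± 0.08 (adjusted p = 0.20). Of 14 measured genes of the tricarboxylic acid cycle, 0 were called, and SUCLA2, a subunit of succinyl-CoA ligase, had 0.39 ± 0.16 at 24 h (adjusted p = 0.23) and 0.19 without untreated replicate 2.

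A further 32 clusters carried a symbol that met the prefixes beside other symbols, and were left out because their signal cannot be given to 1 gene. They included the clusters with NDUFS1, NDUFS5, COX7C, COX17 and ATP5F1B. One of them was called: the cluster shared by NDUFS7 and RPS15, a ribosomal protein gene, fell by 0.78 ± 0.13 at 8 h (adjusted p = 0.048) and by 1.14 ± 0.13 at 24 h (adjusted p = 0.013). Its signals were 8.10, 8.18 and 7.77 untreated, 7.20, 7.30 and 7.21 at 8 h, and 7.02, 6.68 and 6.95 at 24 h, and the 3 groups did not overlap. The cluster of NDUFS7 alone differed by -0.33 ± 0.15 and -0.22 ± 0.15, as given above. With each array left out in turn, the adjusted p of the shared cluster ran from 0.051 to 0.17 at 8 h, so that the 8 h call was lost each time, and from 0.016 to 0.046 at 24 h. With a replicate block the 8 h value was 0.083 as well. Which gene the shared signal came from was not tested. NDUFA4, now named COXFA4, lies outside the rule.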

How the data were processed

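GM12878 RNA was hybridised to Affymetrix Human Exon arrays, 3 cultures per group and 9 arrays in all, as the labels describe. The deposited values are log2 signals per gene-level cluster, which the authors made with Affymetrix Expression Console and RMA, per the submitters' processing notes. Their versions, the genome build and the annotation were not given in the sources used here. Probe effects and normalization are thus already in the values, and no depth exists to set precision; the number of arrays limits it.

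From these values, R 4.3.3 and limma 3.58.1 (lmFit and eBayes) were fitted to all 22011 clusters and 9 arrays with 1 mean per group. Differences are given with moderated standard errors and 95% intervals, and p-values were adjusted by Benjamini-Hochberg over all clusters. Calls were made where the adjusted p was below 0.05. Symbols came from the platform's probe table: 14432 clusters had 1 symbol, 2408 several and 5171 none. For each complex, the assembly factors and the tissue isoforms, the members with the highest and the lowest difference in each comparison were named, and others were added to show a role. The members and gene lists were chosen with earlier results of these data known. The p-values measure the spread between the cultures of 1 line.

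Replicate numbers occur in every group. Over 9 same-number pairs, the correlation of deviations ran from -0.137 to 0.394, and 3 pairs were above 0.1. Pairs of different numbers ran from -0.425 to 0.134. The highest same-number values, 0.394 and 0.376, were both between 0 h and 24 h, so pairing of those groups cannot be settled. The labels were not taken to pair the cultures in the main fit, and a replicate block was tried beside it. The fit was tested on simulated data. The alternatives tried were quantile normalization, centring, leaving out dim clusters, array weights, a replicate block and leaving out each array.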

Additional observations from a re-analysis of the deposited data

How the results depend on the processing

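The count of called members, 0 in each comparison, was the same under quantile normalization, centring, the trended and robust variance model, fits of only the groups compared, averaged clusters, and a threshold of 0.01. With a replicate block, 0 members were called too, and 85, 378 and 44 of all clusters at 8 h, at 24 h and between them. Without the dimmest 25% of clusters 1 member, COX20, was called at 24 h, and the calls over all clusters went from 357 to 517. The reason was not tested. Array weights gave 32, 37 and 4 members (over all clusters 9603, 9010 and 1516), but their estimation stopped before it converged. Weights fitted gene by gene, chosen after seeing the data, gave 4, 8 and 4 (over all clusters 1703, 1889 and 1325). Counting clusters of several symbols, also added later, gave 1 at 8 h and 1 at 24 h. Leaving out 1 array gave 0 to 2 at 8 h and 0 to 1 at 24 h; the cause was not tested.

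Medians of members moved by more than their spread as follows, in log2 units. Quantile normalization gave, at 8 h, -0.0071 for all members, -0.0292 for complex III, -0.0264 for IV and 0.0139 for V; at 24 h, 0.0285 for all, 0.0307 for I, -0.0543 for III, 0.0563 for IV and -0.0394 for V; and between 24 h and 8 h, 0.0283, 0.0554 for I, -0.0186 for III and -0.0773 for V. Centring gave, at 24 h, 0.0257 for all, 0.0693 for I, -0.0157 for III, 0.0166 for IV and -0.0277 for V, and between 24 h and 8 h, 0.0306, -0.0194 for III, -0.0124 for IV and -0.0788 for V. Both move all clusters down at the treated times (medians of -0.05 at 24 h). Without dim clusters complex IV had 0.107 at 24 h. Array weights gave 0.0102 for all and -9e-04 for IV at 8 h, and 0.0362 for all between 24 h and 8 h; gene-by-gene weights gave 0.0061 at 8 h and 0.1174 at 24 h for all, and 0.0762 for V at 24 h.

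With each array left out, the medians at 8 h ran from -0.0037 to 0.055 for all members, 0.0396 to 0.8017 for complex II, -0.035 to 0.0378 for III, -0.0081 to 0.055 for IV and 0.037 to 0.0956 for V. At 24 h they ran from 0.0868 to 0.1218, 0.1435 to 0.8911, 0.0003 to 0.0641, 0.0605 to 0.1103 and -0.0047 to 0.0773 in that order. Between 24 h and 8 h they ran from 0.0406 to 0.0945 for all, 0.0095 to 0.0588 for III, -0.0157 to 0.0576 for IV and -0.0842 to 0.0346 for V. The differences of some single genes changed sign. Under array weights these were NDUFAF2 (0.1337), SDHA (-0.1681) and UQCR10 (0.0335) at 8 h, and SDHA (-0.1319) and UQCRQ (-0.0703) at 24 h. Gene-by-gene weights turned SDHA (-0.1225) and UQCR10 (0.0221) at 8 h and SDHA (-0.0641) at 24 h. With each array left out, SDHA ran from -0.1136 to 0.1962 and UQCR10 from -0.093 to 0.0145 at 8 h, and SDHA from -0.0377 to 0.2721 at 24 h, with the sign turned only without untreated replicate 2. Between 24 h and 8 h, SDHD ran from -0.5662 to 0.1814, turned without 8 h replicate 1 (0.1228) and without 24 h replicate 2, and ATP5PB from -0.4661 to 0.0699, turned without 8 h replicate 1. The cause was not tested. With 3 arrays a group, a member's 95% interval spans 0.25 log2 units on either side at the median, and members near background, such as NDUFAF2, ATP5PB and SDHD, have wider ones.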
